A study of Arabidopsis thaliana with 24 samples.

Results

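The genes described here are 47 nuclear genes of Arabidopsis thaliana. Their products carry out the light reactions of photosynthesis in the chloroplast, belong to Rubisco, the enzyme that fixes CO2, or activate Rubisco. They were chosen by name, from a list of loci for light harvesting, the photosystems, electron transport, the plastid ATP synthase and Rubisco. That rule uses no measured value, but it was set with earlier results of these data known. Of the 47 genes, 42 had a probe set (a group of short probes for one transcript) under their own locus on the Affymetrix ATH1 array, with 1 probe set each among the 22746 tested. The 5 others, LHCB1.1, LHCB1.3, LHCB2.1, RBCS1B and RBCS3B, had none under their locus and are only named. The probe sets of LHCA2, LHCB2.2 and RBCS1A match several genes, so their signals can include close relatives.

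Light is collected by antenna proteins that bind chlorophyll, the LHCB proteins around photosystem II and the LHCA proteins around photosystem I. Photosystem II splits water at its oxygen-evolving complex, electrons then pass through the cytochrome b6f complex and plastocyanin to photosystem I and on to NADP+, and the proton gradient built on the way drives the ATP synthase. The chloroplast genome encodes the reaction centre cores, while the genes here are read in the nucleus and their proteins are imported, and together they supply some of the most abundant messenger RNAs of a leaf mesophyll cell.

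The study compared infiltrated leaves of 4 genotypes. Plants were 6 weeks old and grown on soil in short days, and their leaves were infiltrated either with water or with 1 µM flg22, a peptide of bacterial flagellin that the plant receptor FLS2 perceives as a sign of infection. Harvest followed after 4 h, so water-infiltrated leaves of the same genotype and time are the controls. Col-0 is the wild type, erf104 is a knockout of the ethylene response factor ERF104, mpk6 is a knockout of the MAP kinase MPK6, and 35S::ERF104 carries ERF104 behind the 35S promoter, a viral promoter active in most plant tissues. Each of the 8 groups had 3 arrays. The labels do not say whether the arrays of a group came from separate plants, whether leaves were pooled or whether a line stands for 1 transformant, so the p-values measure the spread between these samples only.

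Values are linear intensities that had been scaled so that the trimmed mean of each array is about 500, and the median over all probe sets ran from 145 to 302 on water arrays and from 133 to 258 on flg22 arrays. ERF104 was at 27010 ± 3710 (SD, n = 3) in 35S::ERF104 water, 188.8 ± 115 (SD, n = 3) in Col-0 water and 33.27 ± 16.7 (SD, n = 3) in erf104 water. MPK6 was at 347.8 ± 105 (SD, n = 3) in mpk6 water and 1138 ± 402 (SD, n = 3) in Col-0 water. The flg22-induced kinase gene FRK1 rose in all 4 genotypes. Replicate 2 of erf104 flg22 correlated with the other arrays, across probe sets, at only 0.223 to 0.25 and was left out, as it is from the authors' group means for 86.06% of probe sets, so 23 arrays were used. Correlations within a group ran from 0.614 to 0.734 in Col-0 water and from 0.73 to 0.836 in Col-0 flg22, against 0.914 to 0.93 in 35S::ERF104 flg22 and 0.907 to 0.913 in 35S::ERF104 water, so the wild type was measured with the widest spread.

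Photosynthesis transcripts were at the top of the signal range in every group. The median of the 42 probe sets on an array ran from 18870 to 44330 on the 12 water arrays and from 15820 to 21970 on the 11 flg22 arrays, ranges that overlap. Expressed as a percentile among all probe sets of the same array, which does not depend on scaling, the median was 99.79 to 99.86 on water arrays and 99.52 to 99.72 on flg22 arrays, and no flg22 array reached a water array. Between 36 and 39 of the 42 probe sets were among the brightest 1% on water arrays, and between 30 and 35 on flg22 arrays. A percentile also falls when other transcripts rise past a gene. After quantile normalization, which gives every array the same distribution, the median log2 intensity was 14.58 to 14.82 on water arrays and 13.98 to 14.39 on flg22 arrays, again without overlap. The 42 probe sets held 4.93% to 10.8% of the summed signal on water arrays and 4.38% to 5.64% on flg22 arrays, ranges that overlap. All were called present on every array of every group by the authors' detection calls, apart from LHCB4.3, whose calls in Col-0 included absent under both treatments. In whole leaves, fewer photosynthetic cells and less of these RNAs per cell cannot be told apart.

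**Figure D1:**
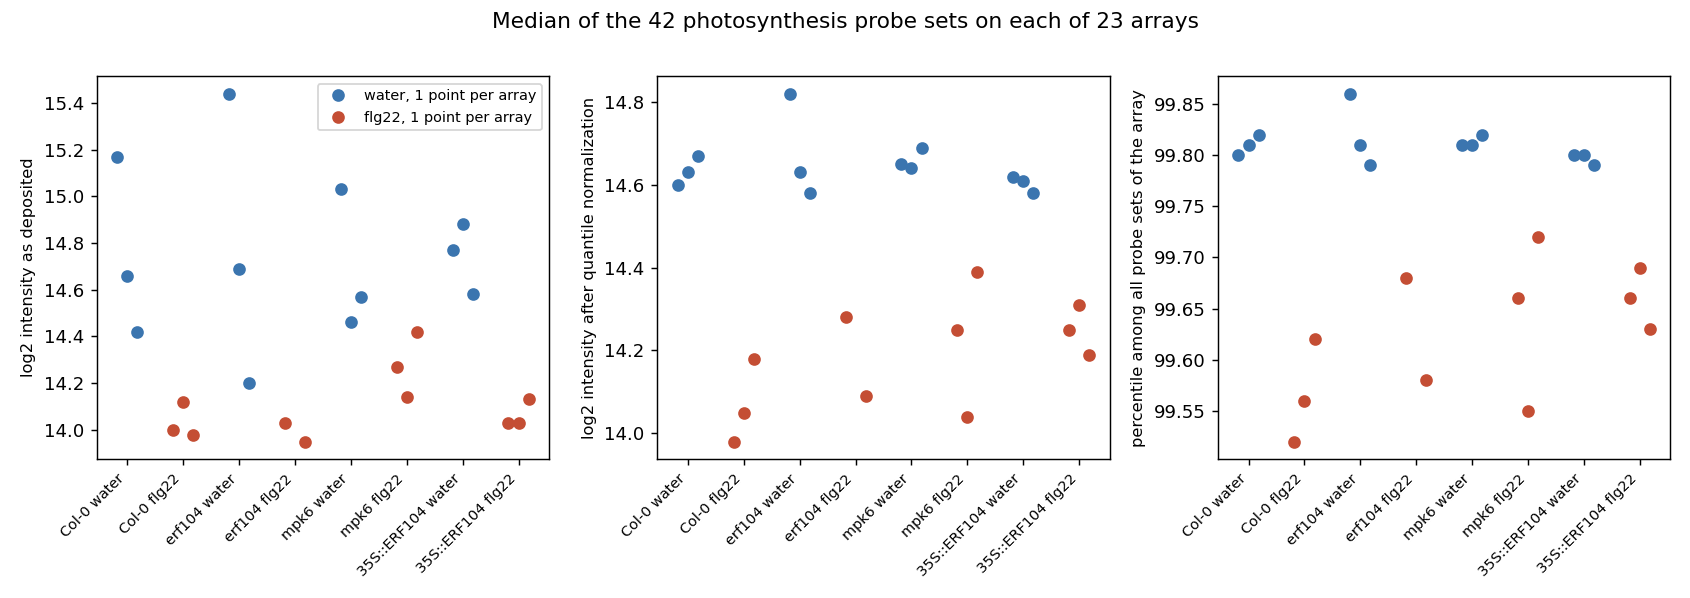
Median of the 42 photosynthesis probe sets on each of the 23 arrays, by group, as log2 intensity as deposited (left), log2 intensity after quantile normalization (middle) and percentile among all probe sets of the array (right); blue points are water arrays and red points flg22 arrays. In the middle and right panels the 11 flg22 arrays, at 13.98 to 14.39 and at percentiles 99.52 to 99.72, lie below all 12 water arrays, at 14.58 to 14.82 and 99.79 to 99.86, while in the left panel the ranges overlap.

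The first question was how far flg22 lowers these genes when the 4 genotypes are read together. The mean of the 4 flg22 changes, a contrast added after the data had been seen, fell past an adjusted p of 0.05 for 37 of the 42 genes, and no gene rose. Over all probe sets tested, 12.5% fell and 9.16% rose by the same rule. The median log2 change of the 42 was -0.61, a 1.53-fold fall, with a range from -1.07 for PETE1 to -0.11 for LHCB4.3, while the median over all probe sets was -0.15. The 5 genes that did not pass were LHCA2, LHCB2.2, LHCB4.3, PETC and LFNR2, with log2 changes of -0.56, -0.48, -0.11, -0.37 and -0.37. Throughout, changes are on the log2 scale, ± marks the standard error that limma gives (SE), and adjusted p-values are limma's after Benjamini-Hochberg correction across the 22746 probe sets. The count depends on the scale: 35 genes fell after quantile normalization, all of them among the 37 and beside 9.29% of all probe sets, but 3 fell after centring each array on its median, beside 7.19% of all probe sets.

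By role, the mean change passed for all 6 genes of the oxygen-evolving complex, all 12 photosystem I subunits, all 4 other photosystem II subunits and both ATP synthase subunits. It also passed for both genes of the Rubisco class, the small subunit RBCS1A and the Rubisco activase RCA. It passed for 3 of 4 LHCI antenna genes, 4 of 5 minor photosystem II antenna genes, 3 of 5 electron carriers and 1 of the 2 LHCII antenna genes measured. The gene with the smallest adjusted p was PETE1 (AT1G76100), which encodes a plastocyanin, the copper protein that carries electrons to photosystem I, at -1.07 ± 0.155 (SE, adjusted p = 9.83e-06). PSBO2 (AT3G50820), an isoform of the protein that stabilises the manganese cluster where water is split, fell by 1.00 ± 0.164 on the log2 scale (adjusted p = 5.1e-05). LHCB4.2 (AT3G08940), a form of the minor antenna CP29, fell by 0.84 ± 0.147 (adjusted p = 0.000112). PSAN (AT5G64040), a photosystem I subunit on the lumen side where plastocyanin docks, fell by 0.78 ± 0.162 (adjusted p = 0.000774). Smaller in size were the falls of the photosystem I antenna LHCA1 (AT3G54890, -0.72), the small photosystem II subunit PSBX (-0.71), the ATP synthase gamma subunit ATPC1 (-0.70), the Rubisco activase RCA (-0.54) and the LHCII antenna LHCB3 (-0.56). LHCB3 had an adjusted p of 0.0271 and lost its call when any 1 of 4 arrays was left out, Col-0 water replicate 1, erf104 flg22 replicates 1 or 3, or 35S::ERF104 flg22 replicate 2, with adjusted p-values of 0.0514 to 0.0607.

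Direction was shared across genotypes whose arrays are separate. The flg22 change was below 0 in all 4 genotypes for 41 of the 42 genes (97.6%), LHCB4.3 being the exception, against 23% of all probe sets. After quantile normalization 40 genes did so, PSAO and LHCB4.3 being the exceptions, against 19%, and after median centring 37 genes, against 16.8%. The 42 genes are not independent of each other. Their deviations from the group means over the 23 arrays correlated with a median r of 0.63 over 861 pairs of genes. Of the pairs, 90% were above 0, so an array that was high for one gene tended to be high for most. The deviations are on the deposited scale, on which whole arrays also differ, and no value for other probe sets is given. LHCB4.3 stood lowest, with a median r of -0.26 with the others, followed by LFNR2 at 0.05, LFNR1 at 0.15 and PETE1 at 0.19.

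Some members kept flg22 and water apart across all genotypes once the arrays shared one distribution. After quantile normalization, 7 genes were lower on each of the 11 flg22 arrays than on any of the 12 water arrays, namely PSBO1 and PSBO2, both plastocyanin genes PETE1 and PETE2, the photosystem I genes PSAL and PSAN, and PSBY. Of all probe sets, 1.31% did so. With the intensities as deposited none of the 42 did, beside 1.11% of all probe sets.

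**Figure D2:**
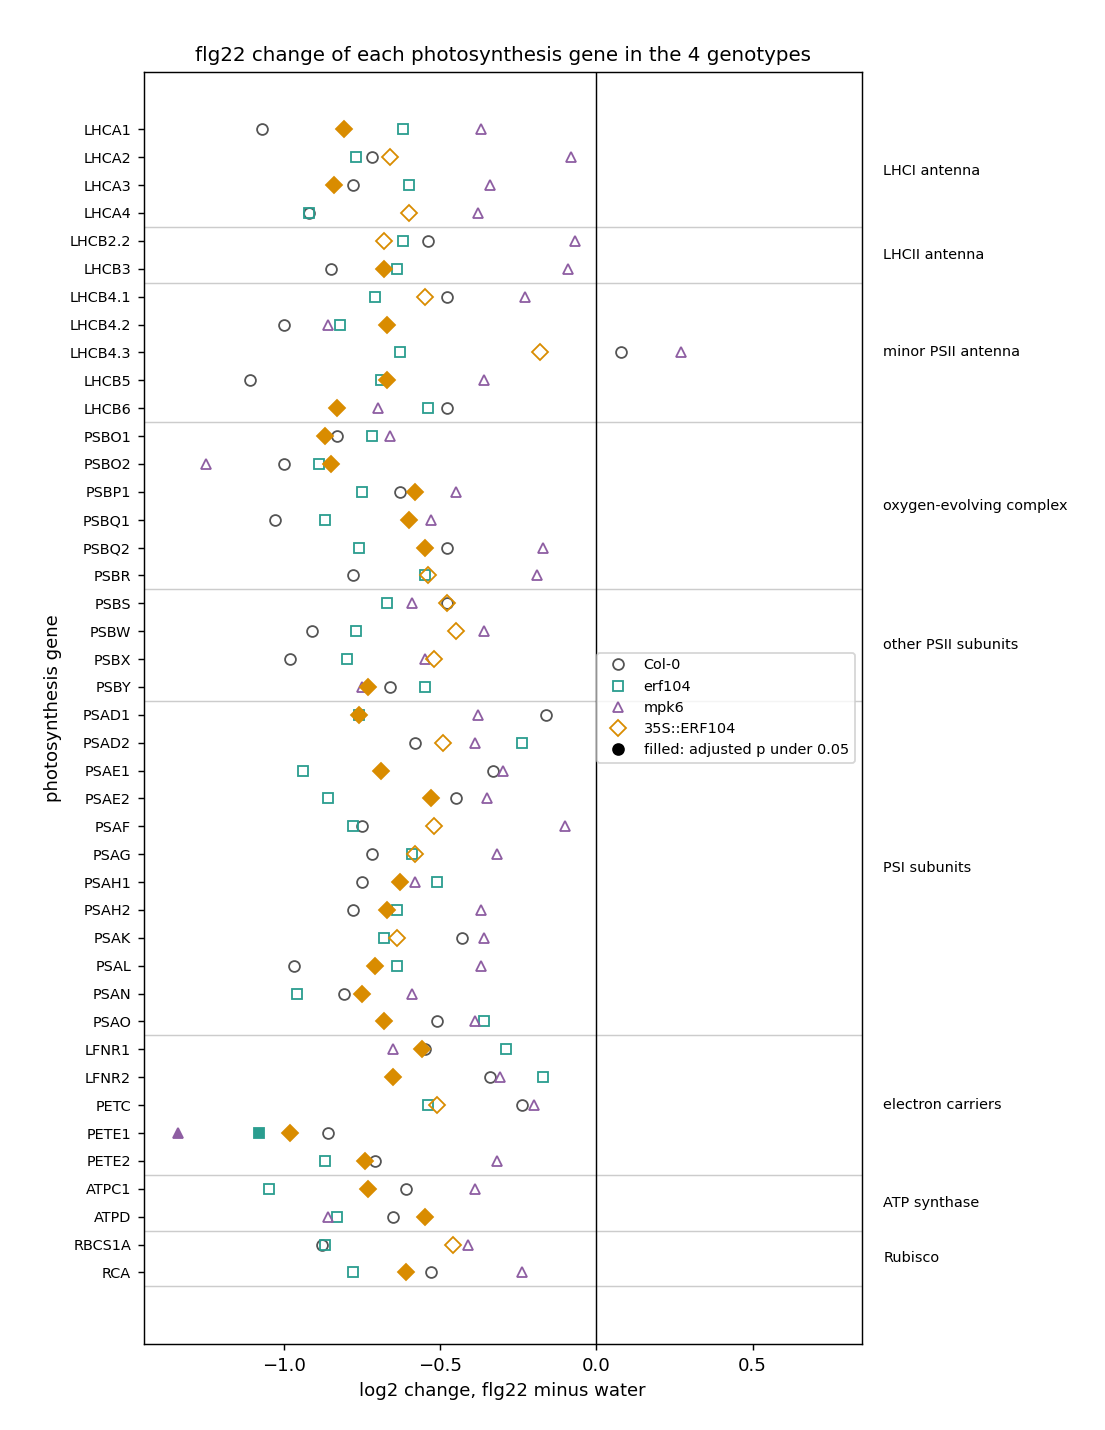
Log2 change with flg22 (x axis, flg22 minus water) of each of the 42 photosynthesis genes (y axis, grouped by role) in Col-0 (circles), erf104 (squares), mpk6 (triangles) and 35S::ERF104 (diamonds); filled symbols passed an adjusted p of 0.05. Nearly all points lie left of 0, the filled ones are 27 genes in 35S::ERF104 and PETE1 in erf104 and mpk6, and the points right of 0 are LHCB4.3 in Col-0 and mpk6.

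In the wild type Col-0 no photosynthesis gene passed the threshold after flg22, although 41 of 42 changes were below 0. The median log2 change was -0.71, with a range from -1.11 to 0.08, beside a median of -0.39 over all probe sets, which leaves a difference of -0.32. Of all probe sets, 0.277% fell and 1.58% rose past the threshold. An unadjusted p below 0.05 was reached by 5 of the 42 genes and by 2705 of the 22746 probe sets, a similar share. After quantile normalization the median was -0.47, and after median centring -0.35. The count of 0 did not hold in every fit. Without Col-0 water replicate 3, 1 gene passed, with the share of all probe sets in that fit not given. Array weights gave 1 fall, beside 1.47% of all probe sets that fell, and a replicate block 2, beside 1.69%. Taking the spread from all 23 arrays gave 7, beside 5.34% of all probe sets that fell in that fit. The smallest p was that of PSBQ1 (AT4G21280), a protein of the oxygen-evolving complex. Its intensities were 9114, 10361 and 13264 on the 3 water arrays and 2989, 5768 and 8618 on the 3 flg22 arrays. Every flg22 array was below every water array, and the log2 change was -1.03 ± 0.421 (SE, adjusted p = 0.303). All 3 flg22 arrays were below all 3 water arrays for 16 of the 42 genes, against 10.9% of all probe sets. LHCA1, an antenna protein of photosystem I, was at 75782, 42650.2 and 47385 under water and at 30266, 23437 and 23246 under flg22 in Col-0, without overlap, and still had an adjusted p of 0.457. PSBO2 was at 17750.3, 13594 and 6083 under water and 5273, 4728 and 7412 under flg22, so water replicate 3 lay inside the flg22 range.

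In 35S::ERF104, the genotype with the tightest replicates, 27 of the 42 genes fell with flg22 and none rose. Of all probe sets, 10.4% fell and 7.98% rose there. The median log2 change was -0.64, a 1.56-fold fall, with all 42 changes below 0 and a range from -0.98 to -0.18, beside a median of -0.11 over all probe sets. After quantile normalization the median was -0.36, with all 42 still below 0. The flg22 arrays lay below all water arrays for 41 of 42 genes, LHCB4.3 being the exception, against 19.7% of all probe sets. By role, 5 of 6 genes of the oxygen-evolving complex fell, 8 of 12 photosystem I subunits, 4 of 5 electron carriers, 3 of 5 minor antenna genes, 2 of 4 LHCI antenna genes, both ATP synthase subunits, 1 of 4 other photosystem II subunits and 1 of 2 LHCII antenna genes. Of the 2 genes of the Rubisco class, the activase RCA fell and the small subunit RBCS1A did not pass. The count moved widely with the fit. It was 41 when only the 15445 probe sets called present or marginal were tested, of which 16.9% fell, 8 after quantile normalization beside 9.48% of all probe sets, and 0, beside 1.86% of all probe sets, when the spread was taken from all 23 arrays, the fit in which Col-0 had 7. Leaving out 1 array gave 8 without water replicate 1, 12 without water replicate 2, 10 without flg22 replicate 1 and 11 without flg22 replicate 2. The share of all probe sets called in these fits is not given, so these counts do not show whether these genes lost more calls than others.

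The members with the smallest adjusted p in each role in 35S::ERF104 were as follows. PSBO2 was at 12991, 12733 and 13453 on the water arrays and at 7189, 7736 and 6804 on the flg22 arrays. Its groups were well apart, and it fell by 0.85 ± 0.134 on the log2 scale (SE, adjusted p = 0.00141). PETE1 was at 6447, 5567 and 4824 under water and at 3145, 3250.3 and 2198 under flg22. It fell by 0.98 ± 0.174 (adjusted p = 0.00271), with flg22 replicate 3 lowest. LHCB6 (AT1G15820), the minor antenna CP24 that links LHCII to the photosystem II core, was at 27425, 27528 and 25488 under water and at 13950.2, 15532 and 15726 under flg22, a fall of 1.78-fold (adjusted p = 0.00469). PSAN was at 19536, 20585 and 19282 under water and at 12335, 12320.5 and 10698 under flg22, a fall of 1.68-fold (adjusted p = 0.0058). In both genes each treatment's arrays lay close together and far from the other treatment's.

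PSBY (AT1G67740), a small membrane subunit of photosystem II, went from 23525, 25076 and 20849 under water to 13242, 13550.5 and 14942 under flg22, a log2 change of -0.73 (adjusted p = 0.00975). ATPC1 (AT4G04640), the gamma subunit that turns inside the ATP synthase, went from 27842, 25599.7 and 22787 to 14235, 15667 and 15813, a log2 change of -0.73 (adjusted p = 0.0111). LHCA1 went from 43141, 45815 and 39837 to 24325, 22346 and 26689, a log2 change of -0.81 (adjusted p = 0.0131). None of these 3 genes had overlapping groups. LHCB3 (AT5G54270) went from 38839.6, 42849.6 and 36737 to 24630.0, 21968 and 27562, a log2 change of -0.68 (adjusted p = 0.0332). RCA (AT2G39730), the chaperone that releases inhibitory sugar phosphates from Rubisco, went from 37452, 42175 and 35995 to 25665, 22748 and 27292, a log2 change of -0.61 with an adjusted p of 0.049, just inside the threshold. LHCA1 lost the call without flg22 replicate 2 (adjusted p = 0.0716) or water replicate 1 (adjusted p = 0.0522), and ATPC1 lost it without water replicate 1 (adjusted p = 0.0553). LHCB3 and RCA also lost the call when single arrays were left out, with adjusted p-values up to 0.149 and 0.192. RCA lost it whichever array was left out, and LHCB3 lost it without any 1 of 4 arrays, flg22 replicates 1 and 2 and water replicates 1 and 2.

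**Figure D3:**
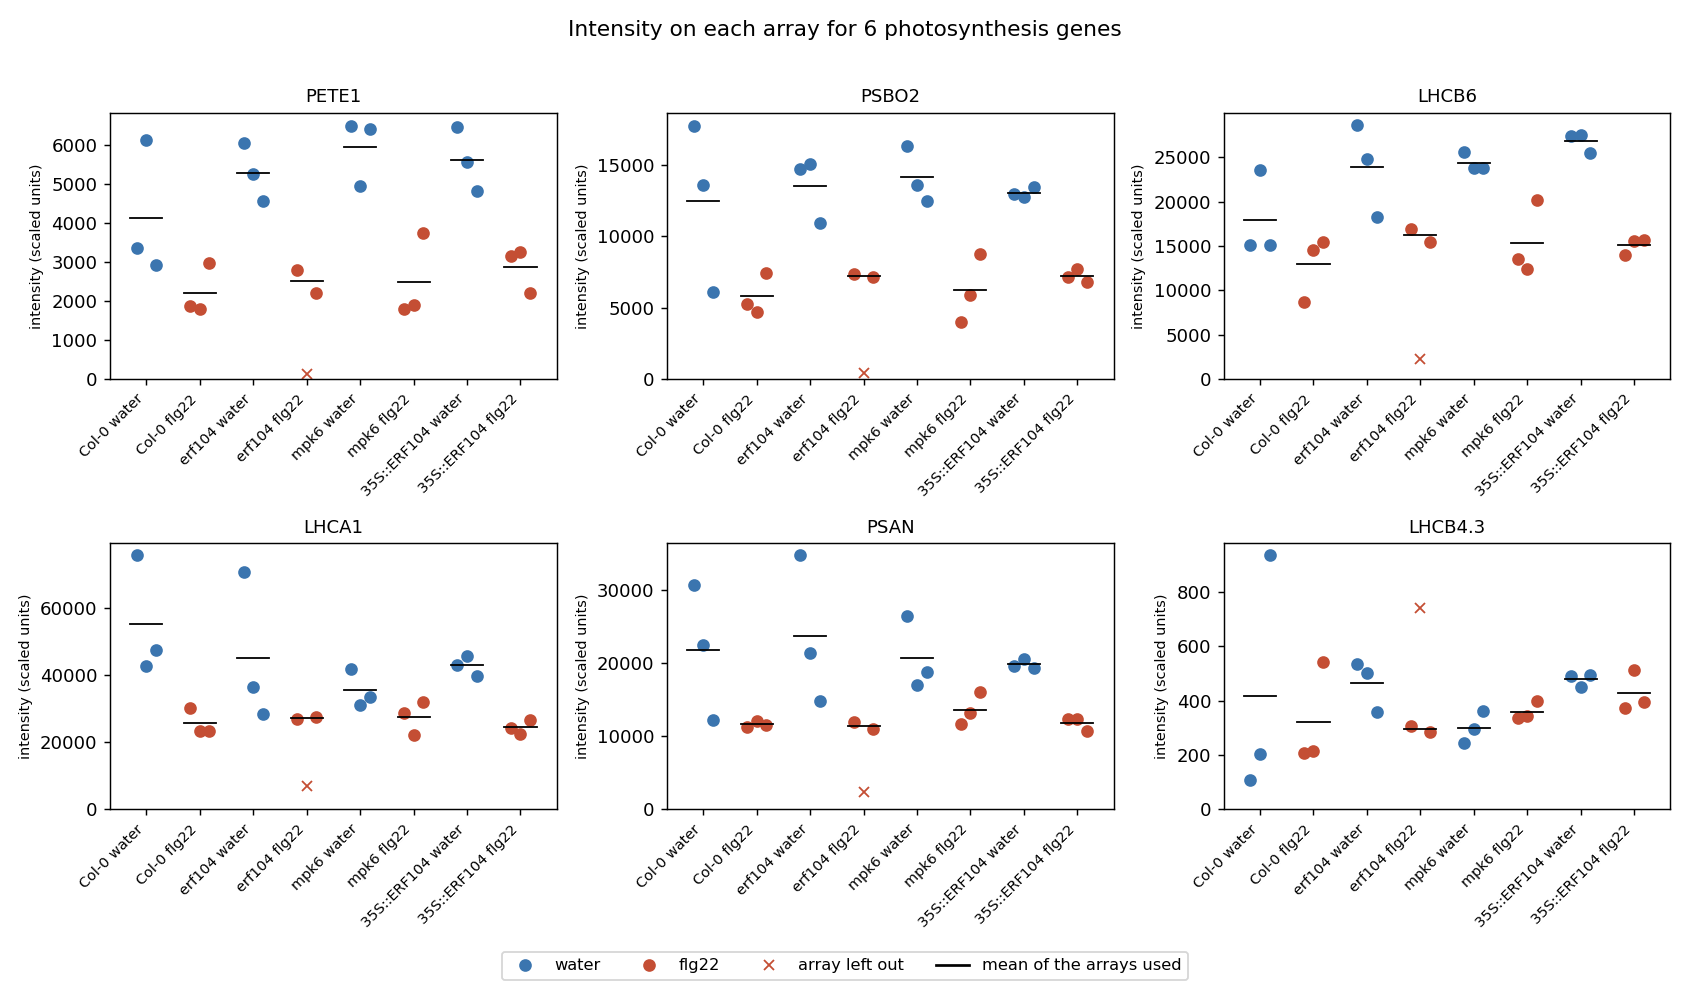
Intensity in scaled units (y axis) on each array, by group (x axis), for PETE1, PSBO2, LHCB6, LHCA1, PSAN and LHCB4.3; blue points are water arrays, red points flg22 arrays, the cross is the left-out array and the black line is the mean of the arrays used. In 35S::ERF104 the water and flg22 points of the first 5 genes are well apart, for example 12733 to 13453 against 6804 to 7736 for PSBO2, in Col-0 they are spread more widely, and for LHCB4.3 the treatments overlap in Col-0, mpk6 and 35S::ERF104.

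In the erf104 knockout, with 2 flg22 arrays, 1 of the 42 genes fell with flg22 and none rose, beside 5.35% of all probe sets that fell and 4.36% that rose. All 42 changes were below 0, with a median of -0.72 against -0.08 over all probe sets. Below an unadjusted p of 0.05 were 10 of the 42 genes and 5049 of the 22746 probe sets, a similar share. The median was -0.39 after quantile normalization, with 41 changes below 0, was -0.42 without erf104 water replicate 1, and was -1.19 with all 24 arrays. The gene that fell was PETE1, at 6061, 5242 and 4565 on the water arrays and at 2808 and 2200.5 on the 2 flg22 arrays used. It changed by -1.08 ± 0.223 (SE, adjusted p = 0.0129). The 2 flg22 arrays were below all 3 water arrays for 33 of 42 genes, against 22.2% of all probe sets. Without water replicate 3 the count was 9, and without water replicate 2 it was 0, with the share of all probe sets in these fits not given. PSBO2 in erf104 was at 14719, 15033 and 10916 under water and at 7359 and 7148 under flg22, without overlap, with an adjusted p of 0.0759.

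In the mpk6 knockout, PETE1 was again the 1 gene of 42 that fell and none rose, while 1.55% of all probe sets fell and 2.17% rose. The median log2 change was -0.37, a 1.29-fold fall, with a range from -1.34 to 0.27, beside a median of 0.01 over all probe sets. Below an unadjusted p of 0.05 were 3 of the 42 genes, a smaller share than the 3422 of all 22746 probe sets. Without mpk6 water replicate 1 the median was -0.24. PETE1 was at 6492, 4959 and 6406 on the water arrays and at 1799, 1896 and 3734 on the flg22 arrays. It fell by 1.34 ± 0.314 on the log2 scale, or 2.53-fold (adjusted p = 0.0377), and its flg22 replicate 3 was above the others but below every water array. PSBO2 was next, at 16308, 13589 and 12502 under water and 4031, 5884 and 8771 under flg22, with a change of -1.25 ± 0.343 that did not pass (adjusted p = 0.0693). The groups did not overlap for 11 of 42 genes, against 10.2% of all probe sets. PETE1 lost its call without flg22 replicate 1 or 2 or water replicate 1 or 2. Without flg22 replicate 3 or water replicate 3, 2 genes passed, with the share of all probe sets in these fits not given. The antenna genes LHCB3, LHCB2.2 and LHCA2 had the changes nearest to 0 among those below it in mpk6, at -0.09, -0.07 and -0.08. LHCB3 there was at 38298, 29335 and 29971 under water and 32945, 27003 and 31131 under flg22, overlapping groups.

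Whether the flg22 change differed from that of Col-0 was tested directly, as an interaction in one fit of 23 arrays. None of the 42 genes passed in erf104, mpk6 or 35S::ERF104, where 0% of all probe sets passed in each. None was below an unadjusted p of 0.05, beside 1393, 1615 and 1531 of the 22746 probe sets. The median difference from the Col-0 response was 0.01, 0.22 and 0.03 for erf104, mpk6 and 35S::ERF104, against 0.18, 0.22 and 0.15 over all probe sets. Leaving out 1 array moved these medians between -0.25 (without erf104 water replicate 3) and 0.29 (without erf104 water replicate 1) in erf104, between 0.04 and 0.43 in mpk6, and between -0.19 (without Col-0 water replicate 1) and 0.24 (without Col-0 water replicate 3) in 35S::ERF104. After median centring they were -0.24, -0.15 and -0.21, so their sign depends on the arrays and the scale. For LHCA1, the difference between mpk6 and Col-0 was 0.70 ± 0.456 (SE, adjusted p = 0.748). The 27 genes called in 35S::ERF104 and the 0 called in Col-0 are therefore not shown to differ in response. These 3 differences share the Col-0 arrays.

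Isoforms of one protein, which have separate probe sets, did not always give the same size of change. PETE1 and PETE2 encode the plastocyanins, and the change of PETE2 minus that of PETE1 was 0.16, 0.21, 1.02 and 0.24 for Col-0, erf104, mpk6 and 35S::ERF104. In mpk6 PETE2 was at 36353, 22428 and 25234 under water and 19427, 23858 and 22769 under flg22, overlapping groups, whereas those of PETE1 were apart, and the log2 ratio of the isoforms on single arrays did not overlap between treatments. PSAD1 and PSAD2, the stromal subunits where ferredoxin docks on photosystem I, differed by 0.52 in erf104 and 0.27 in 35S::ERF104, PSAD1 changing more in both, with no overlap of their ratio, but by -0.42 in Col-0 and -0.01 in mpk6. PSBQ2 minus PSBQ1 was 0.36 in mpk6 without overlap, and 0.54, 0.11 and 0.05 in Col-0, erf104 and 35S::ERF104 with overlap. The pairs PSBO1 and PSBO2, PSAE1 and PSAE2, PSAH1 and PSAH2, and LFNR1 and LFNR2 had overlapping ratios in all 4 genotypes. These differences between isoforms are descriptions and carry no test. Most of the ratios compared overlapped between treatments. For those that did not, no share over other pairs of probe sets is given.

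CP29 comes in 3 forms, LHCB4.1, LHCB4.2 and LHCB4.3. The mean flg22 change was -0.49 ± 0.173 for LHCB4.1 (adjusted p = 0.0414) and -0.84 ± 0.147 for LHCB4.2, both past the threshold. LHCB4.3 was at 107.3, 203.3 and 936.8 on the Col-0 water arrays and at 208.1, 213.0 and 540.9 on the Col-0 flg22 arrays. In mpk6 it was at 243.3, 295.4 and 362.2 under water and 334.3, 344.1 and 399.5 under flg22. Its groups overlapped in both genotypes, and no genotype took it past the threshold, with changes in Col-0 of 0.08, in erf104 of -0.63, in mpk6 of 0.27 and of -0.18 with 35S::ERF104. Of the Rubisco small subunit genes, RBCS1A was measured, by a probe set that matches several genes. It was at 60328, 65144 and 54144 under water and 44089, 42707 and 43187 under flg22 in 35S::ERF104, without overlap and with an adjusted p of 0.19. In Col-0 it was at 156830.0, 48441 and 62731 under water and 54626, 38921 and 35632 under flg22, and its mean change over the genotypes was -0.66 ± 0.204 (adjusted p = 0.0209).

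Differences between genotypes were tested next. Under water, 1 gene was higher in erf104 than in Col-0, beside 2.75% of all probe sets that were higher, and none passed in mpk6 (0% of all higher) or in 35S::ERF104 (2.34% of all higher), nor was any lower, beside 3.55%, 0.0044% and 3.52% of all probe sets. The median differences were -0.04, -0.11 and -0.04 in erf104, mpk6 and 35S::ERF104, against -0.51, -0.35 and -0.48 over all probe sets, and centring each array on its median turns them to 0.62, 0.45 and 0.62. Their sign also turned when 1 array was left out, with ranges of -0.37 to 0.24 in erf104, -0.32 to 0.1 in mpk6 and -0.24 to 0.14 in 35S::ERF104, the highest without erf104 water replicate 3 in the first and without Col-0 water replicate 1 in the others. Water arrays lay wholly above those of Col-0 for 2, 1 and 7 of the 42 genes in erf104, mpk6 and 35S::ERF104, against 7.84%, 3.1% and 9.34% of all probe sets, and wholly below for 0, 1 and 0, against 18.9%, 10.8% and 21.3%. The gene called in erf104 was ATPD (AT4G09650), the delta subunit of the ATP synthase. It was at 5214, 5565 and 5973 in Col-0 water and at 15271, 12895 and 9584 in erf104 water, without overlap, a difference of 1.15 ± 0.325 (SE, adjusted p = 0.038). That call was lost after quantile normalization, without the variance trend, with array weights, with all 24 arrays, and without Col-0 water replicate 1 or erf104 water replicate 1 or 2. In 35S::ERF104 the smallest p under water was that of PSAD1, at 12150.4, 15974 and 11462 in Col-0 and 21173, 23589 and 18706 in 35S::ERF104, groups that do not overlap, with a difference of 0.69 ± 0.266 (adjusted p = 0.0982). In mpk6 it was that of LHCA4, at -0.74 ± 0.36 (adjusted p = 0.318).

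Under flg22 none of the 42 genes passed the threshold against Col-0 in erf104, mpk6 or 35S::ERF104, where 0.0132%, 0% and 0.44% of all probe sets passed in either direction. Below an unadjusted p of 0.05 were 3, 1 and 4 of the 42, beside 1996, 1121 and 3441 of the 22746 probe sets. The median differences were -0.13, 0.11 and -0.04, and 0.1, 0.07 and 0.18 after quantile normalization. Arrays lay wholly below those of Col-0 for 11, 0 and 0 genes, against 14.6%, 3.34% and 12.8% of all probe sets, and wholly above for 6, 0 and 4, against 8.46%, 2.66% and 7.18%. With 2 erf104 arrays against 3, groups separate more readily than with 3 against 3. For 35S::ERF104 the smallest p was that of LFNR1, a ferredoxin-NADP+ reductase, the enzyme that hands electrons to NADP+. It was at 3591, 3291 and 6728 in Col-0 flg22 and at 6839.5, 7869 and 7435 in 35S::ERF104 flg22, without overlap, a difference of 0.78 ± 0.32 (adjusted p = 0.261).

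Other chloroplast functions were read from lists of genes in the same fits. In the Calvin-Benson cycle, which uses the ATP and NADPH made by the light reactions, the mean flg22 change passed as a fall for 11 of 17 genes, with a list median of -0.62, and as a rise for 1. Of all probe sets, 12.5% fell and 9.16% rose in the mean change, the shares to set beside each list count of that contrast. Phosphoribulokinase PRK changed by -1.32 ± 0.156 (SE, adjusted p = 5.04e-07) and the chloroplast fructose-bisphosphatase CFBP1 by -0.90 ± 0.114 (adjusted p = 1.63e-06). The gene that rose was the transketolase TKL2, with changes of 2.66, 2.52, 3.06 and 2.17 for Col-0, erf104, mpk6 and 35S::ERF104, past the threshold in each. Its relative TKL1 fell by 0.85 ± 0.135 (adjusted p = 3.37e-05). Photorespiration, which recycles the product of Rubisco's reaction with oxygen, had 11 of 12 measured genes fall, with a list median of -0.67, among them the aminotransferase AGT1 at -1.30 ± 0.133 (adjusted p = 6.01e-08) and the hydroxypyruvate reductase HPR1 at -1.08 ± 0.135 (adjusted p = 1.21e-06). These medians stand beside -0.61 for the 42 photosynthesis genes and -0.15 for all probe sets.

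Of genes for proteins that protect and maintain the thylakoid, 10 of 14 fell in the mean change, beside 12.5% of all probe sets. Their list median was -0.76, and none rose. The thylakoid kinase STN8 changed by -1.24 ± 0.148 (adjusted p = 6.38e-07). NPQ1, the violaxanthin de-epoxidase of the xanthophyll cycle that helps shed excess light as heat, changed by -1.23 ± 0.159 (adjusted p = 1.99e-06). PSB27, a factor in photosystem II assembly and repair, changed by -1.06 ± 0.144 (adjusted p = 3.6e-06). Among genes for chlorophyll breakdown and senescence, 1 of 10 passed, CLH2 at -0.57 ± 0.17 (adjusted p = 0.0157), with a list median of -0.27. That count is near the 12.5% of all probe sets that fell. In 35S::ERF104 alone the counts of falls were 13 of 17, 11 of 12, 9 of 14 and 4 of 10 for the Calvin-Benson cycle, photorespiration, thylakoid upkeep, and chlorophyll breakdown and senescence. There 10.4% of all probe sets fell.

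Regulators of photosynthesis genes had 7 of 13 genes fall in the mean change and none rise, with a list median of -0.65, beside 12.5% of all probe sets that fell. SIG6, a sigma factor of the plastid RNA polymerase, changed by -1.75 ± 0.332 (adjusted p = 0.000281), and the phytochrome-interacting factor PIF4 by -1.30 ± 0.174 (adjusted p = 3.12e-06). SIG2, another sigma factor, changed by -0.85 ± 0.162 (adjusted p = 0.000313). In Col-0 alone, where 0.277% of all probe sets fell, PIF4 was the 1 regulator that fell, by 2.21 ± 0.491 (adjusted p = 0.0135). The GLK factors are activators of antenna genes. GLK2 changed by -0.91 ± 0.189 in 35S::ERF104 (adjusted p = 0.0068) and by -0.47 ± 0.135 in the mean (adjusted p = 0.012), while GLK1 changed by -0.05 ± 0.121 and -0.07 ± 0.125 and did not pass (adjusted p = 0.856 and 0.792).

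**Figure D4:**
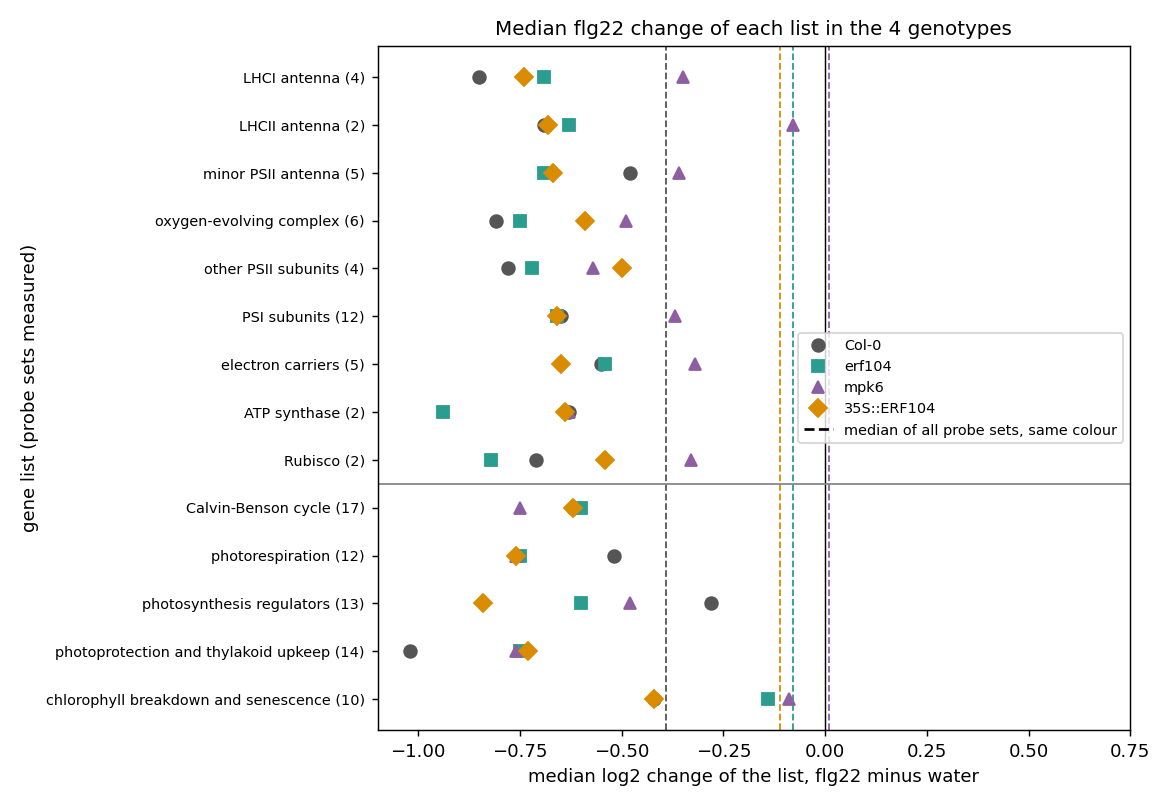
Median log2 change with flg22 (x axis) of each role group of the photosynthesis genes (above the grey line) and of 5 lists of related genes (below it), with the number of probe sets in brackets, in the 4 genotypes; dashed lines are the medians of all probe sets in the same colours. The medians of the role groups lie left of the dashed line of their genotype, and the list for chlorophyll breakdown and senescence lies nearer to the dashed lines than the other 4 lists do.

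Markers of other leaf cells were followed in the same arrays. In 35S::ERF104 the summed guard cell markers ran from 739.9 to 817 on water arrays and from 570 to 633.1 on flg22 arrays, without overlap. The sums overlapped in Col-0, at 932.4 to 1731 under water and 698.7 to 974.9 under flg22. They also overlapped in erf104, at 546.5 to 861.9 and 519.7 to 637.7, and in mpk6, at 659.6 to 953.5 and 512.2 to 857.3. No guard cell marker of 4 passed in any genotype, and HT1 was called absent in every group. Epidermis markers in 35S::ERF104 summed to 10540 to 11230 under water and 11390 to 13040 under flg22, without overlap, while the sums overlapped in the other genotypes. In 35S::ERF104, 0 of 5 passed the threshold. PDF1, a gene called absent in 6 of the 8 groups, fell in the mean over genotypes (-1.49 ± 0.433, adjusted p = 0.0131). Vascular markers summed to 8274 to 10060 under water and 8181 to 9561 under flg22 in 35S::ERF104, and to 9088 to 10650 and 5766 to 9035 in mpk6, with 0 of 6 past the threshold. The sums overlapped in every genotype but mpk6. Of all single probe sets, 19.7% in 35S::ERF104 and 10.2% in mpk6 were lower under flg22 without overlap, and 14.1% in 35S::ERF104 were higher. The trichome markers GL1 and GL2 were called absent on all arrays. Of the 2 root markers, 1 or both were called absent in every group, and neither passed. The part of these markers in the fall of the photosynthesis genes was not tested.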

How the data were processed

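The authors deposited 1 linear intensity per probe set and array in the value table, with biotin-labelled cRNA hybridised to ATH1 arrays per the labels' protocols. The trimmed mean was about 500 on every array after leaving out 2% of values at each end. Neither the summarising software nor the genome build is stated in the sources used here. The detection calls (present, marginal or absent) and the group mean intensity come from the authors' deposited normalized table, which holds no value per array. That mean was compared with the arrays, and the number of arrays limits the precision of every value.

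Intensities were taken to log2 without a pseudocount or a filter, and 64 control probe sets were left out. Groups and replicate numbers came from sample titles. Probe sets were assigned by the locus in the deposited table. limma 3.58.1 in R 4.3.3 (lmFit, then eBayes with a trend) was fitted to all 22746 probe sets, with Benjamini-Hochberg adjustment and a threshold of 0.05. The flg22 response was fitted within each genotype, and genotype differences, interactions and the added mean response on 23 arrays together. The script was run on simulated data with known changes, independent noise for each probe set and the same spread in every group. The real arrays differ in both respects, so that run does not bear on the calls reported. Samples were not paired by replicate number in these fits.

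The members, lists, tests and alternatives were chosen with earlier results of these data known. Values are given for the member of each role with the smallest adjusted p past the threshold and matching 1 gene, or, where none passed, for the smallest p, with isoform pairs, up to 3 genes of each other list, and GLK1 and GLK2. TKL1, and PSBO2, LHCA1, LHCB3 and RBCS1A in comparisons where this rule does not pick them, were named after their values were seen.

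Alternatives were quantile normalization, median centring, no variance trend, only probe sets called present or marginal, only probe sets that match 1 gene, all 24 arrays, 1 fit of 23 arrays, array weights, a replicate block, the methods' test (p of 0.05 with a 3-fold change, or adjusted) and leaving out each array.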

Additional observations from a re-analysis of the deposited data

Results flagged for a closer look

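LHCB4.3 read 741.4 on erf104 flg22 replicate 2, the array left out of every comparison, which is above all 3 erf104 water arrays, the highest of them at 536.6. It drew attention as a signal in unused data above the control level. On that array 40 of the 42 photosynthesis genes were below every erf104 water array and 1, LHCB4.3, was above them all. The whole array differed in scale. Its median over all probe sets was 279, against 145 to 157 on erf104 water arrays. Its 99th percentile was 2957, against 9704 to 13460. The median percentile of the 42 genes on it was 99.66, inside the 99.52 to 99.72 of the flg22 arrays used. The share of all probe sets below or above the erf104 water arrays is not given, so neither count is read as a result about these genes.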

How the results depend on the processing

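Except where single arrays are left out, each count of genes is followed in brackets by the share of all probe sets called in that direction in the same fit. With quantile normalization, 2 genes fell in erf104 (5.12%) and 8 in 35S::ERF104 (9.48%), and 0 were higher in erf104 than in Col-0 under water (2.23%). Median centring gave falls of 0 in mpk6 (0.4%), 5 in 35S::ERF104 (7.88%) and 3 for the mean change (7.19%), and 2 higher in erf104 (9.58%) and 2 in 35S::ERF104 (9.33%) than in Col-0 under water. It turned the median difference from Col-0 to 0.62, 0.45 and 0.62 under water in erf104, mpk6 and 35S::ERF104, to 0.29 and 0.37 under flg22 in erf104 and 35S::ERF104, and the mpk6 interaction to -0.15. Without the variance trend 35S::ERF104 had 5 falls (4.33%) and the knockouts erf104 and mpk6 had 0 each (0% in both), with 0 higher in erf104 under water (0.914%). With only present or marginal probe sets they were 2 in erf104 (9.59%) and 41 in 35S::ERF104 (16.9%). All 24 arrays gave 0 falls in erf104 (0%), 0 higher in erf104 under water (0.0176%) and a median erf104 interaction of -0.46. Array weights gave 3 falls in erf104 (8.61%), 2 in mpk6 (3.44%) and 1 in the wild type (1.47%), 0 higher in erf104 under water (1.43%) and 1 higher with 35S::ERF104 than with Col-0 under flg22 (2.62%). In 1 fit of 23 arrays Col-0 had 7 falls (5.34%), mpk6 had 2 (2.88%), and erf104 and 35S::ERF104 had 0 each (1.04% and 1.86%). The methods' test, adjusted, gave 16 in 35S::ERF104 (4.78%), 0 in erf104 (0.00879%) and 0 in mpk6 (0.0044%), and with a 3-fold change 0 in each (4.2%, 4.38% and 3.92% in either direction). The causes of these changes were not tested.

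Leaving out 1 array gave 8 to 29 genes in 35S::ERF104, 0 to 9 in erf104, 0 to 2 in mpk6, 0 to 1 in Col-0 and 26 to 39 for the mean change. Against Col-0 under water it gave 0 to 2 in erf104, 0 to 0 in mpk6 and 0 to 1 in 35S::ERF104, under flg22 0 to 1, 0 to 0 and 0 to 3, and 0 for each interaction. Where 1 flg22 array of erf104 was left, its spread was assumed to be like that of the other arrays. For these fits the share of all probe sets called is not given, so the counts cannot be set against it.

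Replicate numbers were checked for pairing over all groups. Deviations of same-numbered arrays of different groups correlated at -0.276 to 0.451, with a median of 0 over 77 pairs, of which 10 were above 0.1. For 154 pairs with other numbers the range was -0.326 to 0.378 and the median -0.001, with 15 above 0.1. Same-numbered flg22 and water arrays of one genotype were at 0.168, 0.058 and 0.361 in mpk6 and at 0.069, -0.084 and -0.276 in Col-0. Those of erf104 were at 0 and -0.005, and those of 35S::ERF104 at 0.03, -0.002 and 0. Pairs with other numbers ran from -0.304 to 0.378 in Col-0 and from -0.3 to 0.175 in mpk6. With a replicate block 35S::ERF104 had 20 falls (11.6%), Col-0 and mpk6 had 2 each (1.69% and 4.86%), erf104 had 1 (5.16%), and the mean change had 39 (13%). LHCB4.3 was the 1 gene of 42 with calls of absent, in Col-0. Its values there may lie near background, which was not tested.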

Other observations

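The size of the change was only loosely shared. Across the 42 genes, Spearman's rho between the flg22 changes of 2 genotypes ran from 0.12 for erf104 with 35S::ERF104 to 0.33 for Col-0 with mpk6, below the value over all probe sets (0.4) in the first and above it (0.24) in the second. After quantile normalization the range was 0.32 to 0.71. Between level and change, rho over the 42 genes was -0.21, 0.08, 0.44 and -0.09 for Col-0, erf104, mpk6 and 35S::ERF104, and 0.33 to 0.52 after quantile normalization, so that the order of genes by change depends on the scale. These are correlations across genes on the same arrays, and genes are not independent replicates.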
